A study of Mus musculus with 6 samples.

Results

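The immediate early and stress-induced genes examined here are 35 named genes whose transcripts appear within minutes to hours of a stimulus, taken as a fixed list of symbols from a count table of 17119 gene symbols. All 35 were in the table, and 34 of them were among the 12706 genes that passed the filter on low counts; Fosb did not pass. RNA sequencing was done on unfractionated liver of mice kept for 12 weeks on a high-fat high-cholesterol diet, which is used to bring on fatty liver with inflammation. The heterozygous livers (3 libraries, genotype Clec4f-iCre;Cebpbfl/+) came from mice in which Kupffer cells, the macrophages resident in liver sinusoids, lose 1 copy of Cebpb. The wild-type livers (3 libraries, Clec4f-iCre;Cebpb+/+) came from littermates, which carry the same Cre and ate the same diet. The Cre is driven by Clec4f, a gene of Kupffer cells, so by design hepatocytes and all other liver cells keep both copies of Cebpb. The extent and cell specificity of the deletion were not measured in these data. No age or sex is given in the sources used here, and nothing in the labels says which liver was handled when. Libraries held 16895322 to 17750755 counts. The labelled tissue matched its markers: all 8 listed hepatocyte genes passed the filter, and Alb took 6.89% to 9.3% of the counts of a library.

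Immediate early genes are switched on by factors that already sit in the cell, without new protein synthesis. Kinase cascades reach serum response factor and its partners at CArG boxes, and CREB at cAMP response elements, and the first wave of products then acts on later genes or shuts the signal off. In liver these genes respond to cytokines, stress hormones, fasting, regeneration and handling of the tissue, and their transcripts decay quickly, so a level mostly reflects the time shortly before the tissue was taken. C/EBPβ, the product of the targeted gene, is itself a fast-responding factor of liver and macrophages. In whole liver, fewer cells of a type and less RNA per cell cannot be told apart.

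The RefSeq promoter table of build GRCm38.p6 held 30 of the 35 genes. The entries not in it were Egr1, Ier2, Zfp36l2, Klf10 and Myc. Each window was read over the 250 bases before a transcription start, on both strands. A CArG box lay before a start of 3 of the 30 genes (10%), namely Egr2, Zfp36 and Srf, against 1.62% of all 27025 genes in that table. A full cAMP response element, TGACGTCA, lay before a start of Dusp1, Btg2 and Maff, also 3 of the 30 (10%), against 1.77% of all genes. The AP-1 site TGANTCA was found for 3 of the 30 (10%, against 7.82% of all genes). The C/EBP motif TTNNGCAA was found for 4 of the 30 (13.3%, against 10.8%), namely Jund, Gadd45a, Sgk1 and Maff. None of the 4 motifs contains another, and a match is a run of letters, not a shown binding site. The sequences of Egr2, Dusp1, Zfp36 and Btg2 are shown, the first 4 in list order with a CArG box or a full cAMP response element. These are 2 of the elements through which inducing signals are known to reach such genes. Capitals mark the CArG box in Egr2 and Zfp36 and the cAMP response element in Dusp1 and Btg2. Coordinates are those of GRCm38.p6, whereas the reads were counted on another build.
Egr2 (chr10:67537316-67537565, plus strand): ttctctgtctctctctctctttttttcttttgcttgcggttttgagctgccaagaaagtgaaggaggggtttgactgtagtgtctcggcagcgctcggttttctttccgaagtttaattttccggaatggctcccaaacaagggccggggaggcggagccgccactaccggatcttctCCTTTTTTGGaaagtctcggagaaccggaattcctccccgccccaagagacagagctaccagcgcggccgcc
Dusp1 (chr17:26508473-26508722, minus strand): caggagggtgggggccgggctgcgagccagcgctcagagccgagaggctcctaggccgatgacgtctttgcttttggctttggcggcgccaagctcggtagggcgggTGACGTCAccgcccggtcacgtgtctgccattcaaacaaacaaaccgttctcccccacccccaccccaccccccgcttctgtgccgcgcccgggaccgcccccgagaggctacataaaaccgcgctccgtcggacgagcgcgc
Zfp36 (chr7:28379229-28379478, minus strand): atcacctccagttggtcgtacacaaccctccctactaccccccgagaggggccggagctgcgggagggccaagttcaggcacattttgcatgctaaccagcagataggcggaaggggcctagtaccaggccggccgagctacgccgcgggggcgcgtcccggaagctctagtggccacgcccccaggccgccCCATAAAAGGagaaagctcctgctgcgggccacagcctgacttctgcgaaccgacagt
Btg2 (chr1:134079156-134079405, minus strand): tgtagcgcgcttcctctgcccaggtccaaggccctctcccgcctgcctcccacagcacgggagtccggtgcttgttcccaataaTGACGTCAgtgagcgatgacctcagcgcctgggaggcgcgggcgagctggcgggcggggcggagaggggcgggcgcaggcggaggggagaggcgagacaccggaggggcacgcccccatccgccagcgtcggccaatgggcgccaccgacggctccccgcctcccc

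Between the genotypes, none of the 34 genes passed an edgeR adjusted p of 0.05, and none of the 33 with an adjusted p passed in DESeq2, which gave none for Gadd45g. Over all genes the share past the threshold was 0.582% in edgeR and 4% in DESeq2. Levels are given in CPM, which are counts scaled for depth and TMM factor, and each log2 fold change sets heterozygous over wild-type livers and is given ± SE. The median log2 fold change of the 34 genes was 0.03, beside 0.00 over all genes tested, and 16 of the 34 were negative (47.1%, against 49% of all genes). At an unadjusted edgeR p under 0.05 there were 6 of 34 genes (17.6%), beside 13.2% of all genes. Of these 6, Egr2, Klf6, Klf10, Zfp36l2 and Rhob were lower in the heterozygous livers (5 of 34, beside 9% of all genes) and Nr4a2 was higher (1 of 34, beside 4.2%). The 3 heterozygous and 3 wild-type libraries did not overlap for 5 of 34 genes (14.7%), beside 18.4% of all genes, so such a separation was no more frequent here than in the whole table. In 4 genes all heterozygous libraries were lower (11.3% of all genes) and in 1 gene all were higher (7.05% of all genes). The differences were measured less precisely than for most genes. The median SE of the log2 fold change was 0.31 for the 34 genes, against 0.17 over all genes. The 95% interval lay within a 2-fold change either way for 16 of the 34 genes (47.1%), against 75.5% of all genes.

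**Figure D1:**
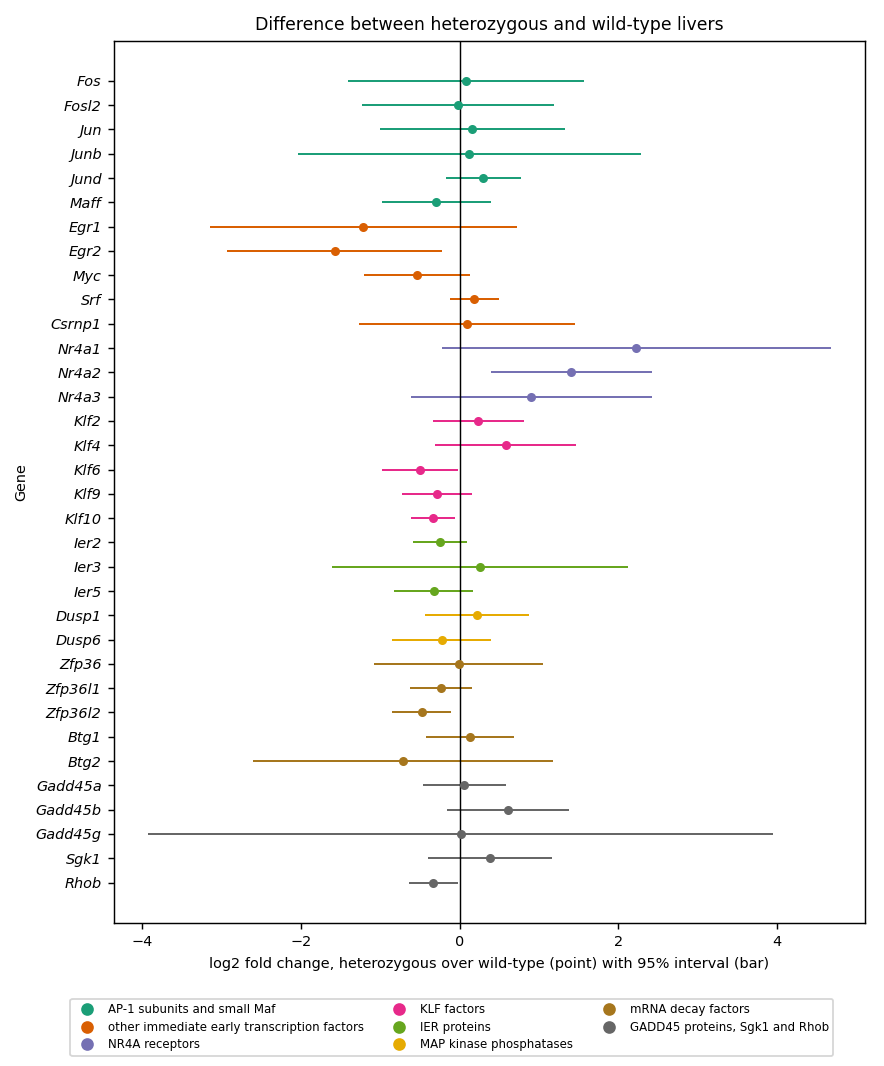
Log2 fold change of heterozygous over wild-type livers (x axis, points) with 95% intervals from edgeR (bars) for the 34 genes tested, coloured by role. The intervals of 28 genes cross 0, the other 6 being Egr2, Klf6, Klf10, Zfp36l2, Rhob and Nr4a2, and that of Gadd45g is wide, from −3.93 to 3.95.

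Livers of the same genotype spread more widely for these genes than for the median gene. The pooled SD of log2 CPM within a genotype had a median of 0.48 over the 34 genes and 0.21 over all genes tested. The highest library was at least 4 times the lowest for 9 of 34 genes (26.5%), against 6.95% of all genes. Heterozygous replicate 2 was the highest of all 6 libraries for 14 of the 34 genes (41.2%, against 17.7% of all genes). Wild-type replicate 1 was the highest for another 14 (41.2%, against 20.8% of all genes). These 2 libraries were the highest pair for 12 of 34 genes (35.3%), against 11.5% of all genes. The 12 genes were Fosl2, Junb, Jund, Maff, Csrnp1, Klf2, Ier3, Dusp1, Zfp36, Btg2, Gadd45a and Gadd45g. The pair was singled out after the values were seen, and no test was made of it.

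The mean log2 CPM of the 34 genes was 3.98, 4.47 and 3.88 in heterozygous replicates 1, 2 and 3 and 4.63, 3.82 and 3.93 in wild-type replicates 1, 2 and 3. The groups overlapped, at 4.11 ± 0.32 in heterozygous and 4.13 ± 0.44 in wild-type livers (SD, n = 3 each). Within its genotype, heterozygous replicate 2 lay above the mean of the other 2 libraries for 27 of 34 genes, with a median difference of 0.44 on the log2 scale, against 50.7% of all genes and a median of 0.01. Wild-type replicate 1 lay above the other 2 wild-type libraries for 30 of 34 genes, with a median difference of 0.67, against 46% of all genes and a median of −0.03. Both held for 25 of the 34 genes (73.5%), against 28.2% of all genes. Heterozygous replicates 1 and 3 and wild-type replicates 2 and 3 had negative medians, between −0.15 and −0.38.

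**Figure D2:**
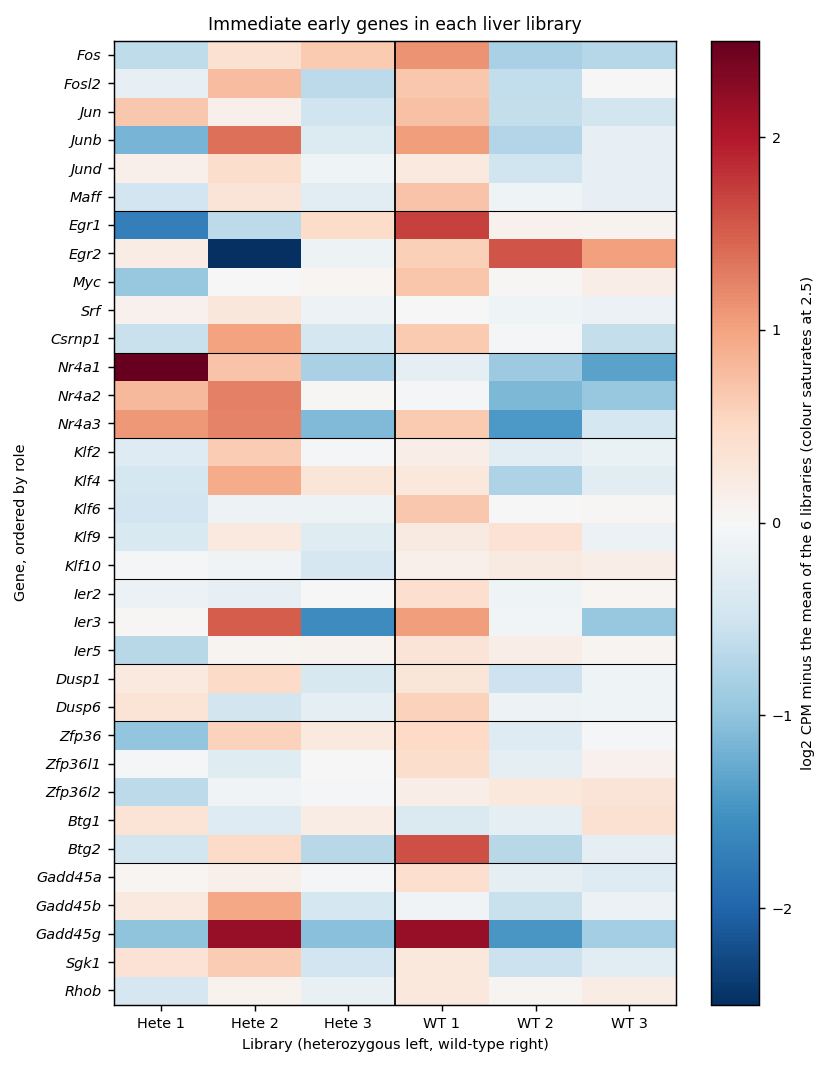
Log2 CPM of each of the 34 genes minus its mean over the 6 libraries (colour), with heterozygous libraries left of the line and wild-type libraries right of it, and genes ordered by role. Heterozygous replicate 2 and wild-type replicate 1 are red for most genes, the NR4A rows are reddest in heterozygous replicate 1 or 2, and Egr2 is blue in heterozygous replicate 2.

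Across the 34 genes the deviation of heterozygous replicate 2 from its group and that of wild-type replicate 1 from its group correlated at r = 0.69. Without Gadd45g, r was 0.55, and over all 12706 genes it was 0.42. The other 8 pairings of a heterozygous with a wild-type library gave r between −0.64 and 0.38 over the 34 genes. The points share the 6 libraries, and the 3 deviations of a group sum to 0, so these values are linked and are given as a description. Both deviations were at least 1 on the log2 scale for Junb, Ier3, Nr4a3, Btg2 and Gadd45g, which is 5 of 34 genes (14.7%), against 0.803% of all genes.

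**Figure D3:**
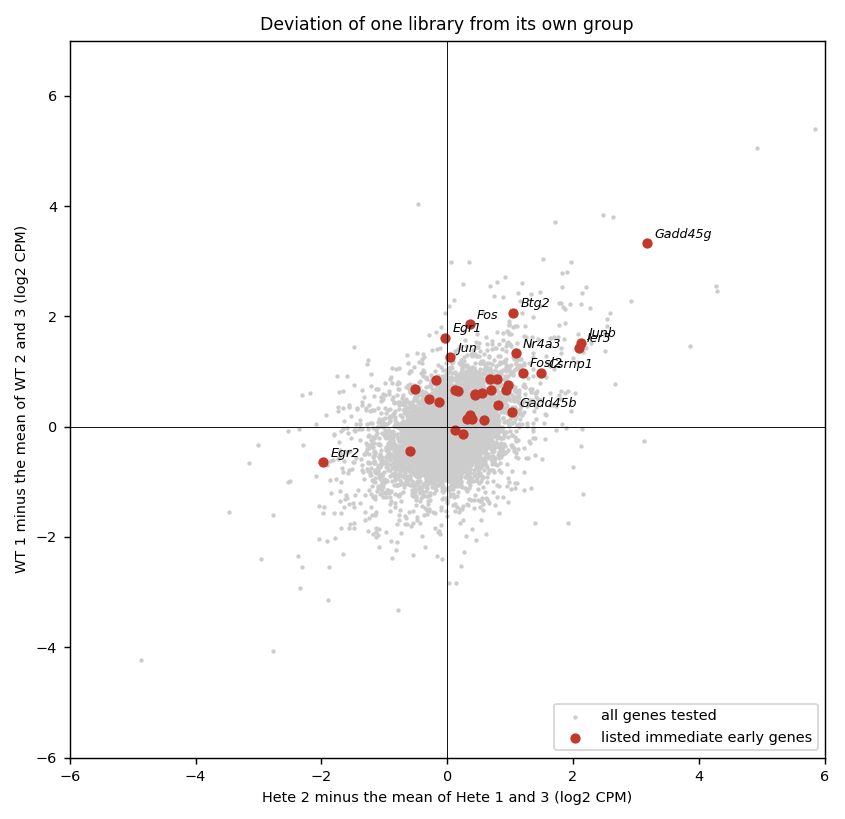
Log2 CPM of heterozygous replicate 2 minus the mean of heterozygous replicates 1 and 3 (x axis) against wild-type replicate 1 minus the mean of wild-type replicates 2 and 3 (y axis), for all genes tested (grey) and the listed immediate early genes (red). Of the 34 red points 25 lie above 0 on both axes, with Gadd45g at 3.18 and 3.33.

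The AP-1 subunits pair up as dimers that bind shared target sites, Fos proteins only with a Jun partner. Fos measured 2.91, 5.88 and 7.11 CPM in heterozygous replicates 1, 2 and 3 and 9.88, 2.56 and 2.74 CPM in wild-type replicates 1, 2 and 3. Its highest library was wild-type replicate 1, at 3.73 times the mean of the other 2 wild-type libraries, and the groups overlapped (log2 fold change 0.08 ± 0.62, edgeR adjusted p = 0.984). Junb, a Jun protein that restrains growth, measured 29.4, 171 and 52.0 CPM in heterozygous livers and 136, 39.3 and 56.7 CPM in wild-type livers. Heterozygous replicate 2 and wild-type replicate 1 were thus 4.19 and 2.83 times the mean of the other libraries of their group, and the group difference was 0.12 ± 0.84 (edgeR adjusted p = 0.980). Jun itself followed another order, with 43.5, 30.0 and 19.4 CPM in heterozygous livers and 45.4, 18.01 and 19.9 CPM in wild-type livers. Here heterozygous replicate 1, not 2, was the highest of its group.

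Among the remaining AP-1 genes, Fosl2 ranged from 15.9 to 42.9 CPM in heterozygous and from 16.3 to 40.1 CPM in wild-type livers. Jund, which is usually expressed more steadily than other Jun genes, ranged from 117 to 172 CPM in heterozygous and from 90.0 to 149 CPM in wild-type livers. Maff, a small Maf protein that dimerises with other basic leucine zipper factors, ranged from 5.94 to 10.3 CPM in heterozygous and from 7.17 to 13.5 CPM in wild-type livers. All 3 had their 2 highest libraries in heterozygous replicate 2 and wild-type replicate 1. Fosb had 12, 5 and 5 reads in heterozygous libraries and 22, 7 and 2 reads in wild-type libraries, too few for the test.

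The EGR zinc finger factors did not share this order. Egr1, a direct target of serum response factor, measured 11.9, 25.0 and 54.1 CPM in heterozygous livers and 128, 42.1 and 41.5 CPM in wild-type livers. Wild-type replicate 1 was 3.06 times the mean of its group's other libraries, while heterozygous replicate 2 lay between the other heterozygous libraries. The group difference of −1.22 ± 0.75 did not pass (edgeR adjusted p = 0.607) and was −0.32 without wild-type replicate 1 and heterozygous replicate 2. Egr2, a related factor also known from macrophages, measured 0.641, 0.0606 and 0.516 CPM in heterozygous livers and 0.854, 1.69 and 1.15 CPM in wild-type livers, from 11, 1 and 9 reads and from 14, 31 and 21 reads. The groups did not overlap, and the lowest library was heterozygous replicate 2, which was high for most of the other genes. The log2 fold change of Egr2 was −1.58 ± 0.60 and did not pass over all genes (edgeR adjusted p = 0.291, unadjusted p = 0.0273).

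Myc, the growth-promoting factor induced after partial hepatectomy, measured 2.85, 5.51 and 5.68 CPM in heterozygous livers and 8.78, 5.55 and 6.13 CPM in wild-type livers. Heterozygous replicate 3 just exceeded wild-type replicate 2, so the groups overlapped (−0.54 ± 0.30, edgeR adjusted p = 0.506). Srf, which encodes serum response factor itself, varied least of all 34 genes in its ratio of highest to lowest library, at 1.36. Its range was 17.6 to 23.6 CPM in heterozygous and 17.4 to 19.3 CPM in wild-type livers. Csrnp1, a nuclear protein induced by axin, measured 32.9 CPM in heterozygous replicate 2 and 25.9 CPM in wild-type replicate 1, and 10.9 to 15.8 CPM in the other 4 libraries.

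The NR4A orphan nuclear receptors, which are induced by cAMP among other signals and act without a known ligand, had their highest values in heterozygous livers. Nr4a1 measured 43.2, 11.9 and 4.13 CPM in heterozygous livers and 6.04, 3.81 and 2.85 CPM in wild-type livers, from 742, 196 and 72 reads and from 99, 70 and 52 reads. Heterozygous replicate 1 stood far above the other 5 libraries, while heterozygous replicate 3 lay within the wild-type range. The log2 fold change, 2.23 ± 0.95, did not reach the threshold (edgeR adjusted p = 0.429) and was 0.93 without heterozygous replicate 1. Nr4a2 measured 1.86, 2.54 and 1.09 CPM in heterozygous livers and 1.04, 0.490 and 0.547 CPM in wild-type livers, from 9 to 42 reads a library. The groups did not overlap, by the narrow gap between heterozygous replicate 3 and wild-type replicate 1. Its log2 fold change was 1.41 ± 0.45 (95% interval 0.40 to 2.42, edgeR adjusted p = 0.189). Nr4a3 measured 1.57, 1.76 and 0.344 CPM in heterozygous livers and 1.16, 0.272 and 0.547 CPM in wild-type livers, from 27, 29 and 6 reads and from 19, 5 and 10 reads. Its groups overlapped (0.90 ± 0.67, edgeR adjusted p = 0.660), and with 1 library left out the log2 fold change ran from 0.53 to 1.58. All 3 receptors had heterozygous replicates 1 and 2 as their highest pair of libraries.

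**Figure D4:**
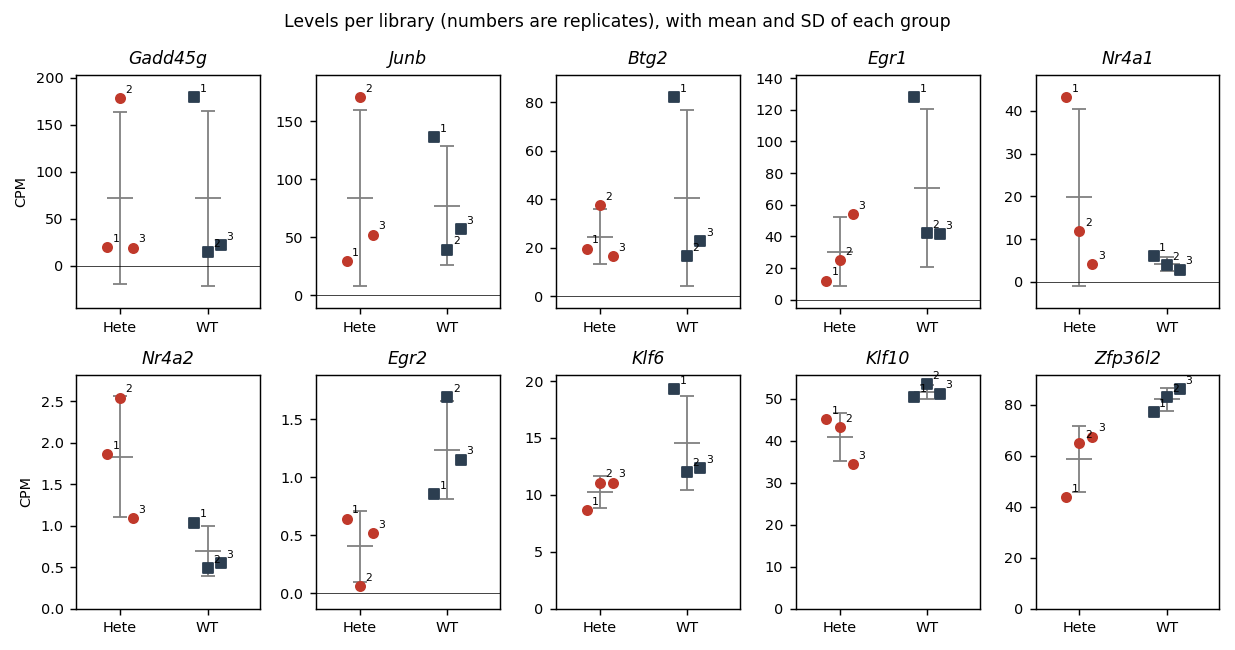
CPM per library (points, numbered by replicate) for 10 of the genes, with heterozygous livers left and wild-type livers right of each panel and the mean and SD of each group in grey. In Gadd45g, heterozygous replicate 2 and wild-type replicate 1 sit at 178 and 180 CPM and the other 4 libraries between 14.5 and 21.9 CPM; in the 5 panels from Nr4a2 to Zfp36l2 the groups do not overlap.

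The Krüppel-like factors were split. Klf6, induced in injured liver and in stellate cells, measured 8.68, 11.1 and 11.1 CPM in heterozygous livers and 19.3, 12.0 and 12.4 CPM in wild-type livers. The groups did not overlap (−0.50 ± 0.21, edgeR adjusted p = 0.357), and without wild-type replicate 1 the difference was −0.23. Klf10, a gene induced by TGF-beta, measured 45.1, 43.1 and 34.4 CPM in heterozygous livers and 50.3, 53.4 and 51.1 CPM in wild-type livers. All 3 wild-type libraries were close together above the heterozygous ones (−0.34 ± 0.12, 95% interval −0.62 to −0.05, edgeR adjusted p = 0.273). Klf4 measured 1.92, 4.97 and 3.21 CPM in heterozygous livers and 3.11, 1.52 and 2.13 CPM in wild-type livers. Klf2, known with Klf4 from endothelium under flow, ranged from 13.1 to 25.7 CPM in heterozygous and from 13.5 to 18.5 CPM in wild-type livers. Klf9, a target of the glucocorticoid receptor, ranged from 94.0 to 144 CPM in heterozygous and from 111 to 157 CPM in wild-type livers. The groups of Klf4, Klf2 and Klf9 overlapped.

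Genes whose products shut the response off were tested next. Dusp1, a phosphatase that inactivates p38 and JNK, measured 92.5, 108 and 58.7 CPM in heterozygous livers and 95.6, 54.1 and 72.5 CPM in wild-type livers. Its highest 2 libraries were heterozygous replicate 2 and wild-type replicate 1, and the difference of 0.22 ± 0.28 did not pass (edgeR adjusted p = 0.826). Dusp6, the ERK phosphatase, was instead lowest in heterozygous replicate 2, at 24.9 CPM, and highest in wild-type replicate 1, at 50.6 CPM. The IER proteins are small regulators without enzyme activity of their own. Ier3, which modulates survival and ERK signalling, measured 1.40, 3.88 and 0.459 CPM in heterozygous livers and 2.81, 1.31 and 0.711 CPM in wild-type livers. Its 2 highest libraries were again heterozygous replicate 2 and wild-type replicate 1, and the groups overlapped. Ier2 ranged from 22.7 to 26.1 CPM in heterozygous and from 24.2 to 35.01 CPM in wild-type livers, and Ier5 from 5.999 to 10.3 CPM in heterozygous and from 10.2 to 12.2 CPM in wild-type livers.

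The mRNA decay factors shorten the life of unstable transcripts, the ZFP36 proteins by binding AU-rich elements. Zfp36l2 measured 43.9, 64.9 and 67.5 CPM in heterozygous livers and 77.2, 83.0 and 86.1 CPM in wild-type livers. No heterozygous library reached the lowest wild-type one (−0.48 ± 0.16, 95% interval −0.85 to −0.11), but the difference did not pass over all genes (edgeR adjusted p = 0.224, unadjusted p = 0.0157). Zfp36, which encodes tristetraprolin, ranged from 69.9 to 205 CPM in heterozygous and from 111 to 196 CPM in wild-type livers (−0.01 ± 0.43). Zfp36l1 ranged from 154 to 189 CPM in heterozygous and from 163 to 259 CPM in wild-type livers. So the 3 family members differed in which libraries were high. Btg2, an antiproliferative protein that recruits the CCR4-NOT deadenylase, measured 19.6, 37.5 and 16.7 CPM in heterozygous livers and 82.1, 16.6 and 22.8 CPM in wild-type livers. Wild-type replicate 1 was 4.16 times and heterozygous replicate 2 was 2.06 times the mean of the other 2 libraries of its group. The log2 fold change was −0.72 ± 0.74 with all libraries and 0.34 without wild-type replicate 1. Its relative Btg1 ran the other way, with its lowest value, 52.3 CPM, in wild-type replicate 1 and its next lowest, 53.3 CPM, in heterozygous replicate 2.

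Gadd45g, a growth arrest protein that activates the p38 and JNK pathways, had the largest deviations of these 2 libraries among the 34 genes. It measured 19.9, 178 and 19.2 CPM in heterozygous livers and 180, 14.5 and 21.9 CPM in wild-type livers. Heterozygous replicate 2 was 9.12 times and wild-type replicate 1 was 9.87 times the mean of the other 2 libraries of its group. The group means of 72.4 ± 91.6 CPM in heterozygous and 72.0 ± 93.2 CPM in wild-type livers (SD, n = 3 each) were nearly equal, with a 95% interval of the log2 fold change from −3.93 to 3.95. Its relatives varied less, with Gadd45a between 5.51 and 6.24 CPM in heterozygous and between 4.54 and 7.56 CPM in wild-type livers, and Gadd45b between 3.44 and 9.02 CPM in heterozygous and between 3.16 and 4.39 CPM in wild-type livers. Sgk1, a kinase induced by glucocorticoids and serum, ranged from 21.1 to 45.5 CPM in heterozygous and from 20.3 to 35.4 CPM in wild-type livers. Rhob, a short-lived GTPase of endosomes, ranged from 34.3 to 48.5 CPM in heterozygous and from 48.1 to 54.8 CPM in wild-type livers (−0.33 ± 0.14, edgeR adjusted p = 0.352), an overlap by a single library.

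Other genes and lists were read across the same libraries. The targeted gene Cebpb measured 204, 498 and 269 CPM in heterozygous livers and 506, 308 and 340.4 CPM in wild-type livers, so its highest libraries were the same 2. Of 20 other immediate early genes tested, 0 passed in either direction, and 9 had the same highest pair, against 11.5% of all genes. Rgs2, a regulator of G protein signalling in that list, measured 4.48, 4.91 and 5.91 CPM in heterozygous livers and 12.6, 10.8 and 9.08 CPM in wild-type livers, with no overlap (−1.09 ± 0.19, edgeR adjusted p = 0.0516). The glucocorticoid-responsive list had a mean log2 CPM of 5.50, 7.82 and 6.20 in heterozygous livers and 8.87, 6.71 and 7.08 in wild-type livers. Of its 10 genes 7 had that highest pair, against 11.5% of all genes. A negative log2 fold change was seen for 9 of the 10, against 49% of all genes, and 0 passed the threshold. Mt1, a metallothionein, measured 7.92, 346 and 16.0 CPM in heterozygous livers and 1577, 27.4 and 82.7 CPM in wild-type livers. Fkbp5, a co-chaperone of the glucocorticoid receptor, measured 17.4, 73.7 and 31.9 CPM in heterozygous livers and 208, 78.9 and 59.3 CPM in wild-type livers.

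The acute phase list, mostly but not only hepatocyte genes driven by cytokines, had a mean log2 CPM of 8.02, 8.88 and 8.13 in heterozygous livers and 10.31, 8.67 and 9.02 in wild-type livers. Heterozygous replicate 2 was the highest of its group there too, but its level lay within the wild-type range. All 20 acute phase genes had a negative log2 fold change, against 49% of all genes, and Il1rn alone of them passed the threshold. Heat shock genes had 5.70, 5.68 and 5.49 in heterozygous livers and 6.28, 5.63 and 5.83 in wild-type livers, so that wild-type replicate 1 stood out and heterozygous replicate 2 did not. MAP kinases and upstream transcription factors differed little between libraries, from 4.60 to 4.82 in heterozygous and from 4.65 to 4.78 in wild-type livers, with 0 of 20 past the threshold. Within that narrow range their highest means were also those of heterozygous replicate 2 and wild-type replicate 1. The 11 other MAP kinase feedback genes also had 0 past it. Dusp2, a phosphatase of leukocytes, measured 0.990, 0.909 and 1.15 CPM in heterozygous livers and 2.74, 2.88 and 1.64 CPM in wild-type livers (edgeR adjusted p = 0.123). The part of these signals in the spread of the immediate early genes was not tested.

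**Figure D5:**
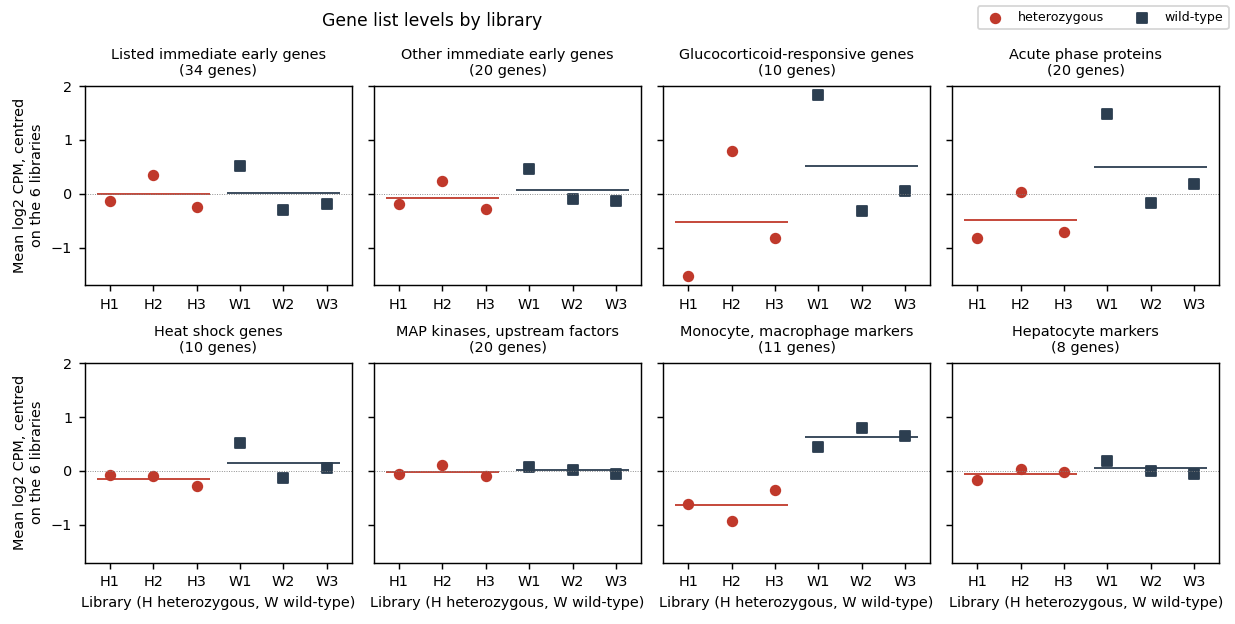
Mean log2 CPM of 8 gene lists in each library (points), centred on the mean of the 6 libraries, with heterozygous libraries (red circles) left of wild-type libraries (dark squares) and lines at group means. Heterozygous replicate 2 and wild-type replicate 1 are the high points of their groups in every list shown but the heat shock genes and the monocyte and macrophage markers. The monocyte and macrophage markers separate by genotype.

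Monocyte, macrophage and neutrophil markers separated by genotype and not by those 2 libraries. The monocyte and macrophage list does not tell recruited from resident cells. All 11 monocyte and macrophage markers had a negative log2 fold change, against 49% of all genes, and 3 passed the threshold (Ccr2, Lyz2 and Cd68). The 11 markers summed to 125 to 156 CPM in heterozygous and 299 to 537 CPM in wild-type livers. Of the 8 Kupffer cell markers 0 passed. Their mean log2 CPM was 3.07, 3.23 and 2.98 in heterozygous livers and 4.34, 4.78 and 3.51 in wild-type livers, with no overlap and a difference of −1.12, whereas their summed levels overlapped, at 331 to 553 CPM in heterozygous and 431 to 699 CPM in wild-type livers. The 5 neutrophil markers tested, of which Csf3r passed, summed to 8.50 to 12.1 CPM in heterozygous and 23.0 to 27.5 CPM in wild-type livers. No listed marker was at 0 in all libraries. The hepatocyte, T and NK cell, B and plasma cell, sinusoidal endothelium, stellate cell, cholangiocyte and red blood cell lists each had 0 genes past the threshold. Mean log2 CPM of the T and NK cell list still did not overlap, at 0.22 to 0.69 in heterozygous and 1.01 to 1.53 in wild-type livers. All 8 of its genes were negative, against 49% of all genes. The cholangiocyte means did not overlap either, at 1.94 to 2.52 in heterozygous and 2.58 to 2.90 in wild-type livers. The same held for the mean over all genes tested, at 3.87 to 3.89 in heterozygous and 3.92 to 3.97 in wild-type livers. The group difference was −0.69 for the T and NK cell list, −0.55 for the cholangiocyte list and −0.06 over all genes. The hepatocyte markers had a mean log2 CPM of 12.21, 12.42 and 12.36 in heterozygous livers and 12.57, 12.38 and 12.33 in wild-type livers. Heterozygous replicate 2 and wild-type replicate 1 were thus the highest of their groups here too. They were the highest pair for 4 of the 8 markers, against 11.5% of all genes. Alb took 9.3% of the counts in heterozygous replicate 2, 8.5% in wild-type replicate 1 and 6.89% to 8.07% elsewhere. The part of the hepatocyte markers in the spread of the immediate early genes was not tested. Several of the listed immediate early genes, some with lower and some with higher values in heterozygous livers, are also expressed by leukocytes. The part of cell numbers in their differences was not tested.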

How the data were processed

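Liver RNA of 6 samples, 3 per genotype, was sequenced from stranded poly(A)-selected libraries made from 500 ng RNA, per the labels' protocols. The authors deposited raw counts, whole reads per gene symbol, in 1 table, and all 6 columns were used. The submitters' processing notes name GRCm39, HTSeq 0.9.1, HISAT2 2.2.1.0 and Trimmomatic 0.36. The counter's strand setting is not given in the sources used here, so reads of a gene and an antisense partner may be mixed. Sample titles gave groups and replicate numbers. In the genotype field the Cre driver is numbered upwards with the replicate, and the series design, which names Clec4f, was followed. The labels tie no sample to an animal, litter or batch, so a p-value reflects sample-to-sample spread, which may be technical.

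In R 4.3.3, genes were filtered (filterByExpr), scaled by TMM (factors 0.924 to 1.041) and tested with edgeR 4.0.16 (glmQLFit, robust, glmQLFTest), with Benjamini-Hochberg adjustment over all genes at 0.05. The lowest TMM factors were 0.924 in wild-type replicate 1 and 0.978 in heterozygous replicate 2. The SE is the log2 fold change without its sign, divided by the square root of F. Log2 CPM used a prior count of 2. The fit was also run on simulated counts with known changes. Those counts did not carry the wide spread of the listed genes, so that run does not bear on them. Chi-square per degree of freedom between libraries was 22.1 to 107.8, so none was a duplicate. Same-numbered libraries deviated together at r = −0.21, −0.31 and 0.19 over all genes, so numbers were not treated as pairs. DESeq2 1.42.0, other scalings and filters, a replicate block, an acute phase covariate and left-out libraries were alternatives. The genes, lists and alternatives were chosen with earlier results of these data known. Values in every library are given for genes whose groups do not overlap, the 12 with the largest ratio of highest to lowest library, and Fos, Jun, Egr1, Dusp1 and Myc. From other lists, genes past the threshold and the 3 with the smallest p could be named. Sik1, Cebpd and Socs3 were instead picked after their values were seen. Intervals cover the spread between libraries as modelled.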

Additional observations from a re-analysis of the deposited data

How the results depend on the processing

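No listed gene passed the threshold with any single library left out, nor under the other alternatives, with 1 exception. With the mean of the acute phase list as a covariate, 2 genes passed, Jund (0.75, edgeR adjusted p = 0.0379) and Btg2 (0.92, 0.0274), and the median of the 34 genes was 0.63. That covariate differs between the genotypes and shares the high libraries of these genes, so it takes out part of both, and its calls have no single reading. All other signs and sides of the threshold were kept, except as follows. With the covariate the log2 fold change was 0.85 for Fosl2, 0.019 for Dusp6, 0.60 for Zfp36, −0.24 for Btg1 and 0.35 for Maff. Zfp36 was 0.0062 with no filter on low counts and 0.0011 in DESeq2. With the replicate block Junb was −0.076 and Gadd45g −0.021, and the median was −0.05. As a difference of group means of log2 CPM the median was −0.033 with a prior count of 0.5 and −0.028 with 5. With heterozygous replicate 2 and wild-type replicate 1 both left out, 0 of 33 listed genes passed, the median was −0.02, and the log2 fold change was −0.22 for Junb, −0.11 for Ier3, 0.21 for Dusp6, 0.043 for Zfp36l1 and −0.19 for Csrnp1. With 1 library left out, the log2 fold change ran from −0.24 to 1.02 for Fos, −0.53 to 0.39 for Fosl2, −0.16 to 0.73 for Jun, −0.92 to 0.82 for Junb, −0.78 to 0.93 for Ier3, −0.48 to 0.058 for Dusp6, −0.33 to 0.33 for Zfp36, −0.0027 to 0.38 for Btg1, −1.15 to 0.34 for Btg2, −0.086 to 0.44 for Klf2, −0.082 to 0.33 for Gadd45a, −1.88 to 2.01 for Gadd45g, −0.56 to 0.073 for Maff and −0.59 to 0.50 for Csrnp1, and the median from −0.27 (without heterozygous replicate 2) to 0.34 (without wild-type replicate 1). Over all genes, 74 were called, against 37 with upper-quartile scaling, 211 with no filter, 48 at 1 CPM or more in 3 samples, 525 in DESeq2, 20 with a non-robust fit, 0 with the replicate block, 288 with the covariate, 4 without that pair of libraries, and 0 to 122 with 1 library left out. The order of the 6 libraries by the mean of the listed genes was the same with prior counts of 0.5 and 5 and with both other scalings. Fosb, Egr2 and Nr4a3, with 31 reads or fewer in each library, are limited by depth.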

Other observations

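Heterozygous replicate 1 was the lowest of all libraries for 11 of the 34 immediate early genes (32.4%, against 17.2% of all genes). Wild-type replicate 2 was the lowest for another 11 (32.4%, against 14.9% of all genes). Heterozygous replicate 1 was the highest of all libraries for 1 of the 34 genes, Nr4a1 (2.94%, against 16.4% of all genes). Outside the listed genes, and picked after the values were seen, Sik1, a kinase gene induced by cAMP, measured 79.5, 47.1 and 12.4 CPM in heterozygous livers and 34.7, 12.7 and 15.2 CPM in wild-type livers. Heterozygous replicate 1 was the highest library for Sik1 as it was for Nr4a1, and heterozygous replicate 3 the lowest for Sik1. Cebpd, which encodes another C/EBP factor and was also picked after its values were seen, measured 9.09, 39.4 and 18.6 CPM in heterozygous livers and 40.6, 18.2 and 18.1 CPM in wild-type livers. Its 2 highest libraries were heterozygous replicate 2 and wild-type replicate 1, as for Cebpb and Gadd45g. Socs3, the feedback inhibitor of cytokine receptors, chosen in the same way, measured 4.08, 101 and 11.5 CPM in heterozygous livers and 48.1, 14.2 and 21.4 CPM in wild-type livers, with heterozygous replicate 2 above wild-type replicate 1. Sik1, Cebpd and Socs3 all belong to the other immediate early genes already counted above.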
